A study of Mus musculus with 12 samples.

Results

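The 53 genes described here encode factors of ribosome biogenesis, among them the RNA polymerase I (Pol I) machinery that transcribes the ribosomal RNA (rRNA) genes. They were taken by name from the 32288 entries of a deposited table of RNA-seq counts, the names having been listed with earlier results of these data known, and all 53 were found and passed the filter on low counts in every comparison. By role they fall into 6 Pol I transcription factors, 8 genes of nucleolar organisation and rRNA gene cofactors, 4 box C/D snoRNP proteins, 4 box H/ACA snoRNP proteins, 14 factors of the small subunit and 17 factors of the large subunit. The members lie on 19 chromosomes, with at most 7 on any of them.

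Ribosomes are built in the nucleolus. Pol I transcribes a long precursor rRNA, which is modified at many bases by small nucleolar ribonucleoprotein particles (snoRNPs), cut into the mature rRNAs, folded with ribosomal proteins and exported to the cytoplasm as a small and a large subunit. The transcription factor c-Myc is known to act on this pathway at several levels, and osteoblasts, which secrete large amounts of collagen, depend on a high capacity for protein synthesis.

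RNA was sequenced from mGFP+ CD31- CD45- TER119- cells sorted from the metaphysis of the distal femur and the proximal tibia of mice, in 12 libraries of 4 groups. Juvenile *Osx*+ osteoblasts (4 libraries, 3 weeks of age) and adult *Osx*+ osteoblasts (4 libraries, 8 weeks of age) came from *Osx-CreERT2*; *mTmG* mice. In these mice tamoxifen lets CreERT2, made in cells that express *Osx*, switch on membrane GFP, and each library pooled 2 male mice, collected 2 days after tamoxifen on 3 consecutive days, with the diaphysis trimmed about 2 mm from the growth plate. *c-Myc*-induced osteoblasts (2 libraries) came from mice that carried *LSL-tTA* and *Col1a1::TetO–c-Myc* beside *Osx-CreERT2* and *mTmG*, in which the same recombination allows the tetracycline transactivator to switch on a *c-Myc* transgene. *c-Myc* + *R172H* osteoblasts (2 libraries) additionally carried *Trp53-LSL-R172H*, a mutant p53 allele that the same recombination activates. The induced mice received tamoxifen on 2 consecutive days, starting when they were 3 weeks old, and their cells were taken 7 days later. Doxycycline or tetracycline had been stopped before the cells were taken. Mice of these 2 groups are called 5 weeks old where the trimming, here about 5 mm, is described. Every mouse had received tamoxifen, and no uninduced mouse of the induced genotypes was among the libraries. The effect of induction therefore cannot be told apart from those of age, of the tamoxifen schedule, of earlier doxycycline or tetracycline and of the trimmed length. Sex differs too. The paper describes the induced mice as male and female, although elsewhere it states that RNA-seq used males. *Xist*, a transcript of female cells described below, was high in replicate 2 of each induced group and low in every other library. Nothing states how many mice an induced library holds, so the p-values measure only the spread between these libraries.

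Expression is given as normalized CPM, which are counts scaled to a common library size corrected by TMM factors, and fold changes are on the log2 scale. Total counts ranged from 9066154 to 15684412 per library, and 3 counts corresponded to between 0.137 and 0.417 CPM. The induced gene was high in the induced libraries, with a *Myc* level, which may include reads of the transgene, of 39.8 to 52.2 CPM in juvenile, 624 and 657 CPM in *c-Myc* and 639 and 747 CPM in *c-Myc* + *R172H* libraries. *Xist*, which is transcribed from the inactive X chromosome of females, stood at 233 and 211 CPM in replicate 2 of the *c-Myc* and of the *c-Myc* + *R172H* group and at most 1.24 CPM elsewhere, so results are also given without these 2 libraries. All 10 osteoblast markers and all 9 chondrocyte markers examined were expressed in every group. Their summed levels were 571439 to 840307 CPM and 8466 to 24994 CPM in juvenile, 343127 to 618692 CPM and 33193 to 120964 CPM in adult, 99897 to 132298 CPM and 335 to 533 CPM in *c-Myc*, and 56413 to 58358 CPM and 156 to 159.9 CPM in *c-Myc* + *R172H* libraries. The endothelial and erythroid markers (4 of each) summed to at most 1.14 CPM in any library, and the haematopoietic markers (6) to at most 9.25 CPM. In bulk libraries, a change in the share of a cell type and a change in RNA per cell cannot be told apart.

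The first comparison asked how the pathway differed between *c-Myc*-induced and juvenile osteoblasts. All 53 genes had higher levels in *c-Myc*-induced osteoblasts, against 51.3% of all genes tested, by a median log2 fold change of 2.14 (4.42-fold; quartiles 1.67 and 2.47). With edgeR's quasi-likelihood test, 50 of the 53 rose by a log2 fold change of at least 1 at an adjusted p below 0.05, against 18.4% of the 12588 genes tested, and 0 fell, against 16.0%. DESeq2 also called 0 of them lower, and the median of all genes tested was 0.04. A log2 fold change of at least 2 was reached by 30 members, against 8.35% of all genes. Every *c-Myc* library lay above every juvenile library for 53 of 53 members, an ordering met by 35.7% of all genes tested. The 3 members that did not reach the fold threshold were *Ubtf*, *Ltv1* and *Imp3*, at adjusted p-values of at most 0.0134.

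**Figure D1:**
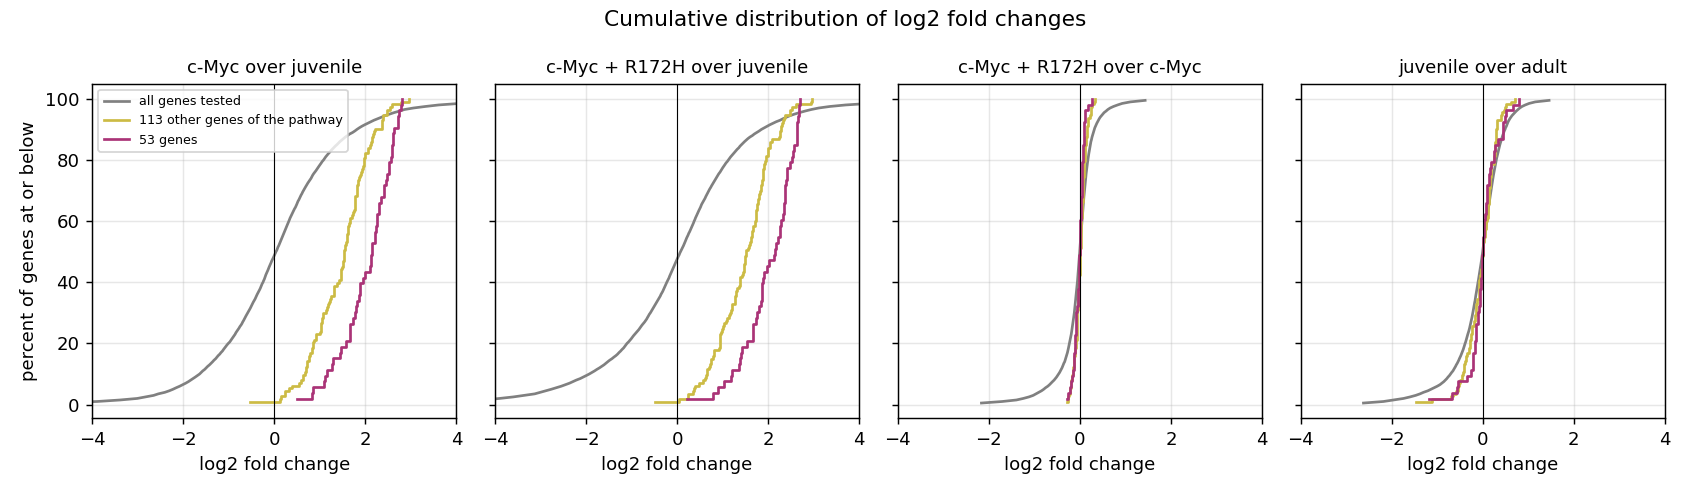
Cumulative percentage of genes (vertical axis) at or below each log2 fold change (horizontal axis) in 4 comparisons, for the 53 genes, for 113 other genes of the pathway and for all genes tested, the latter drawn from the 0.5 to the 99.5 percentile. In both comparisons of induced with juvenile libraries the 53 genes lie to the right of all genes (medians 2.14 and 2.16), and in the other comparisons their medians lie at -0.002.

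The members also took a larger part of each library. Their counts summed to 0.083–0.125% of the total in juvenile, 0.097–0.142% in adult, 0.710–0.791% in *c-Myc* and 0.847–0.886% in *c-Myc* + *R172H* libraries. Other genes that took many counts moved between the groups as well. *Col1a1*, the major collagen of bone, fell from 33.4–39.1% of counts in juvenile to 9.14–11.3% in *c-Myc* libraries, whereas *Gm26917* went from 7.19–8.46% to 28.2–29.4%. With these genes, *Col1a2*, *Gm42418* and *AY036118* left out of the totals, the members took 0.230–0.299% in juvenile, 0.210–0.261% in adult, 1.43–1.45% in *c-Myc* and 1.46–1.47% in *c-Myc* + *R172H* libraries. When libraries were scaled by their totals and not by TMM factors, the median of all genes moved to 0.87 and that of the members to 2.97. The distance between these medians was 2.10, compared with 2.11 under TMM. Scaling shifts all genes by nearly the same amount, so this distance is no check on the scaling. Of the genes called with library totals, 88.2% were higher in *c-Myc* libraries, compared with 53.6% under TMM.

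**Figure D2:**
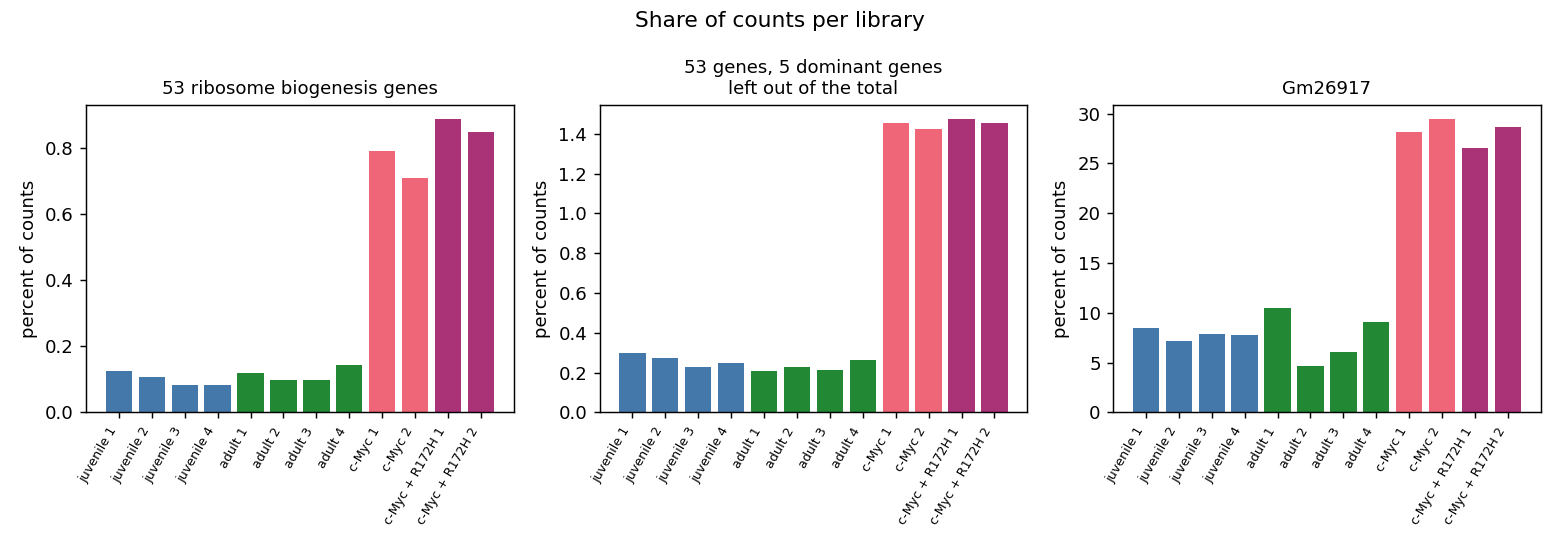
Percent of the counts of each of the 12 libraries (bars, coloured by group) taken by the 53 genes, by the 53 genes once 5 dominant genes are left out of the total, and by *Gm26917*. The 53 genes stand between 0.710 and 0.886% in the 4 induced libraries and between 0.083 and 0.142% in the 8 others.

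The E-box CACGTG is the sequence that c-Myc is known to bind together with its partner Max. Promoter sequences, from 250 bases before to 50 bases after the annotated start, were matched by name for 46 of the 53 members in the RefSeq annotation of GRCm38.p6. No entry was matched for *Npm1*, *Tcof1*, *Fbl*, *Rrp12*, *Bop1*, *Rrs1* and *Gnl2*. The letters CACGTG, which read the same on both strands, occurred in 12 of the 46 (26.1%). They were found in 1176 of the 9808 tested genes with a promoter sequence, 8.09% of all 27025 genes with one and 16.8% of 95 other genes of the pathway. The related letters CACGCG, searched on both strands, occurred in 17 of the 46 (37.0%). They were found in 20.7% of tested genes, 10.5% of all genes with a promoter sequence and 29.5% of the other pathway genes. The median log2 fold change in *c-Myc* over juvenile libraries was 1.83 for the 12 members with CACGTG and 2.18 for the 34 without it. The windows below are shown because they span the range of responses among members that carry the E-box, from *Ltv1* (0.84) to *Nle1* (2.61), and because *Rrn3* holds 2 copies. They are RefSeq sequences of GRCm38.p6, written 5′ to 3′ on the strand of the gene, with the E-box in capitals and its first base counted from the start site. *Rrn3* carries it at -215 (chr16:13780472-13780501) and -48 (chr16:13780639-13780668) on the plus strand, *Nop2* at -60 (chr6:125131811-125131840, plus strand), *Nmd3* at -114 (chr3:69721929-69721958, plus strand), *Nle1* at 24 (chr11:82908355-82908384, minus strand) and *Ltv1* at 29 (chr10:13193092-13193121, minus strand).
Rrn3 distal: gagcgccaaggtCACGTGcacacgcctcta
Rrn3 proximal: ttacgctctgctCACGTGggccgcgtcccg
Nop2: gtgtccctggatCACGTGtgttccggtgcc
Nmd3: cgccccttgctaCACGTGtattctttgacc
Nle1: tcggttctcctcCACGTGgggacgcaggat
Ltv1: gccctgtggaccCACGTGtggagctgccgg

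Among the 6 Pol I genes, 5 were called higher in *c-Myc*-induced osteoblasts, and all 6 were higher at an edgeR adjusted p below 0.05. The median log2 fold change of the 6 was 1.69. *Polr1e*, which encodes a Pol I-associated subunit, is listed as ENSMUSG00000028318 and lies on chromosome 4 of GRCm38 from 45018583 to 45036565. It was measured at 3.74, 3.92, 4.03 and 2.61 CPM in the juvenile libraries, replicates 1 to 4, and at 22.7 and 20.9 CPM in the *c-Myc* libraries. It rose by 2.58 on the log2 scale (SE 0.21, edgeR adjusted p = 5.69e-07), and it gained most in this group. *Polr1b*, a catalytic subunit, went from 19.2, 15.7, 18.8 and 14.9 to 91.2 and 81.0 CPM (log2 fold change 2.31, SE 0.12). *Polr1a*, the largest catalytic subunit, went from 37.3, 33.2, 19.9 and 35.4 to 123 and 124 CPM (1.94, SE 0.18). The juvenile libraries of *Polr1a* were less even than those of *Polr1b*, with replicate 3 lowest, but no juvenile library of either gene came near the *c-Myc* libraries. *Polr1c*, a subunit shared with RNA polymerase III, changed by 1.43 (SE 0.16).

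The factors that bring Pol I to the rRNA genes moved least in this group. *Rrn3*, also called TIF-IA, which links the polymerase to the promoter, stood at 33.5, 31.4, 27.8 and 28.2 CPM in juvenile and 69.5 and 64.7 CPM in *c-Myc* libraries (log2 fold change 1.12, SE 0.12). *Ubtf*, listed as ENSMUSG00000020923 on chromosome 11 of GRCm38 from 102304560 to 102319742, encodes UBF, which binds along active rRNA genes. Its level was 89.6, 86.2, 71.1 and 105 CPM in juvenile and 159 and 161 CPM in *c-Myc* libraries, so the groups did not overlap. Its change of 0.84 on the log2 scale (SE 0.13, edgeR adjusted p = 1.06e-04) passed on p and stayed under the fold threshold of 1. Per kilobase of exon, *Ubtf* and *Polr1b* were at 13.4 and 2.95 CPM in juvenile and at 24.5 and 14.8 CPM in *c-Myc* libraries.

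All 8 genes of nucleolar organisation and rRNA gene cofactors rose, with the highest group median (2.52). *Nolc1*, a chaperone of snoRNPs also known as Nopp140, went from 31.7, 34.1, 32.8 and 19.2 CPM in juvenile to 203 and 211 CPM in *c-Myc* libraries (log2 fold change 2.79, SE 0.16, edgeR adjusted p = 5.52e-08). Replicate 4 was the lowest of the juvenile libraries by a wide gap. *Npm1*, which encodes nucleophosmin, a major structural protein of the nucleolus, was the member with the highest level per kilobase of exon in all 4 groups (31.9 CPM in juvenile, 197 CPM in *c-Myc* libraries). *Npm1* was measured at 90.1, 98.0, 87.9 and 64.0 CPM in juvenile and 539 and 509 CPM in *c-Myc* libraries, or 2.60 on the log2 scale (SE 0.13). *Ncl*, which encodes nucleolin, changed by a similar amount (2.53, SE 0.13). *Tcof1*, which encodes treacle and works with UBF at the rRNA genes, went from 33.9, 25.9, 18.1 and 31.4 to 161 and 159 CPM (2.51, SE 0.17). *Lyar*, *Mybbp1a*, a nucleolar regulator of transcription, and the RNA helicase gene *Ddx21* had log2 fold changes of 2.62, 2.35 and 2.25. *Gnl3*, which encodes the GTPase nucleostemin, stood apart from the other 7 with 43.2, 35.9, 30.9 and 41.1 CPM in juvenile and 96.4 and 89.6 CPM in *c-Myc* libraries, or 1.27 on the log2 scale (SE 0.13).

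The snoRNP proteins rose in both classes, 4 of 4 in each, with group medians of 2.43 for box C/D and 2.38 for box H/ACA. Box C/D particles guide the methylation of ribose in rRNA. *Fbl*, which encodes their methyltransferase fibrillarin, was at 10.0, 13.1, 7.79 and 11.1 CPM in juvenile and 64.2 and 65.4 CPM in *c-Myc* libraries (log2 fold change 2.59, SE 0.16). *Rrp9*, whose product is a specific protein of the U3 particle, went from 10.4, 7.63, 9.32 and 11.8 to 64.99 and 65.6 CPM (2.72, SE 0.15). *Nop56*, a core scaffold protein, had the smallest change of the 4, from 32.5, 31.3, 32.1 and 29.9 to 151 and 147 CPM, and the smallest standard error of all members (log2 fold change 2.22, SE 0.09, edgeR adjusted p = 8.04e-09). Its partner *Nop58* changed by 2.26 (SE 0.20).

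Box H/ACA particles convert uridine to pseudouridine in rRNA. *Dkc1*, the gene of the pseudouridine synthase dyskerin, went from 16.5, 13.7, 16.5 and 11.3 to 80.3 and 83.6 CPM (log2 fold change 2.47, SE 0.14). *Nhp2* had the largest change of the 4, from 18.9, 21.1, 16.0 and 13.9 to 123 and 111 CPM (2.71, SE 0.14), and *Nop10* the smallest, from 10.1, 6.29, 5.70 and 7.33 to 38.1 and 26.9 CPM (2.10, SE 0.22). *Gar1* was the least precise of the 53 genes. Its juvenile libraries read 1.37, 3.82, 3.62 and 0.745 CPM, lowest in replicate 4, where 3 counts corresponded to 0.373 CPM, and its *c-Myc* libraries read 10.9 and 12.8 CPM, for a log2 fold change of 2.29 with an SE of 0.42 (95% confidence interval 1.37 to 3.22).

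**Figure D3:**
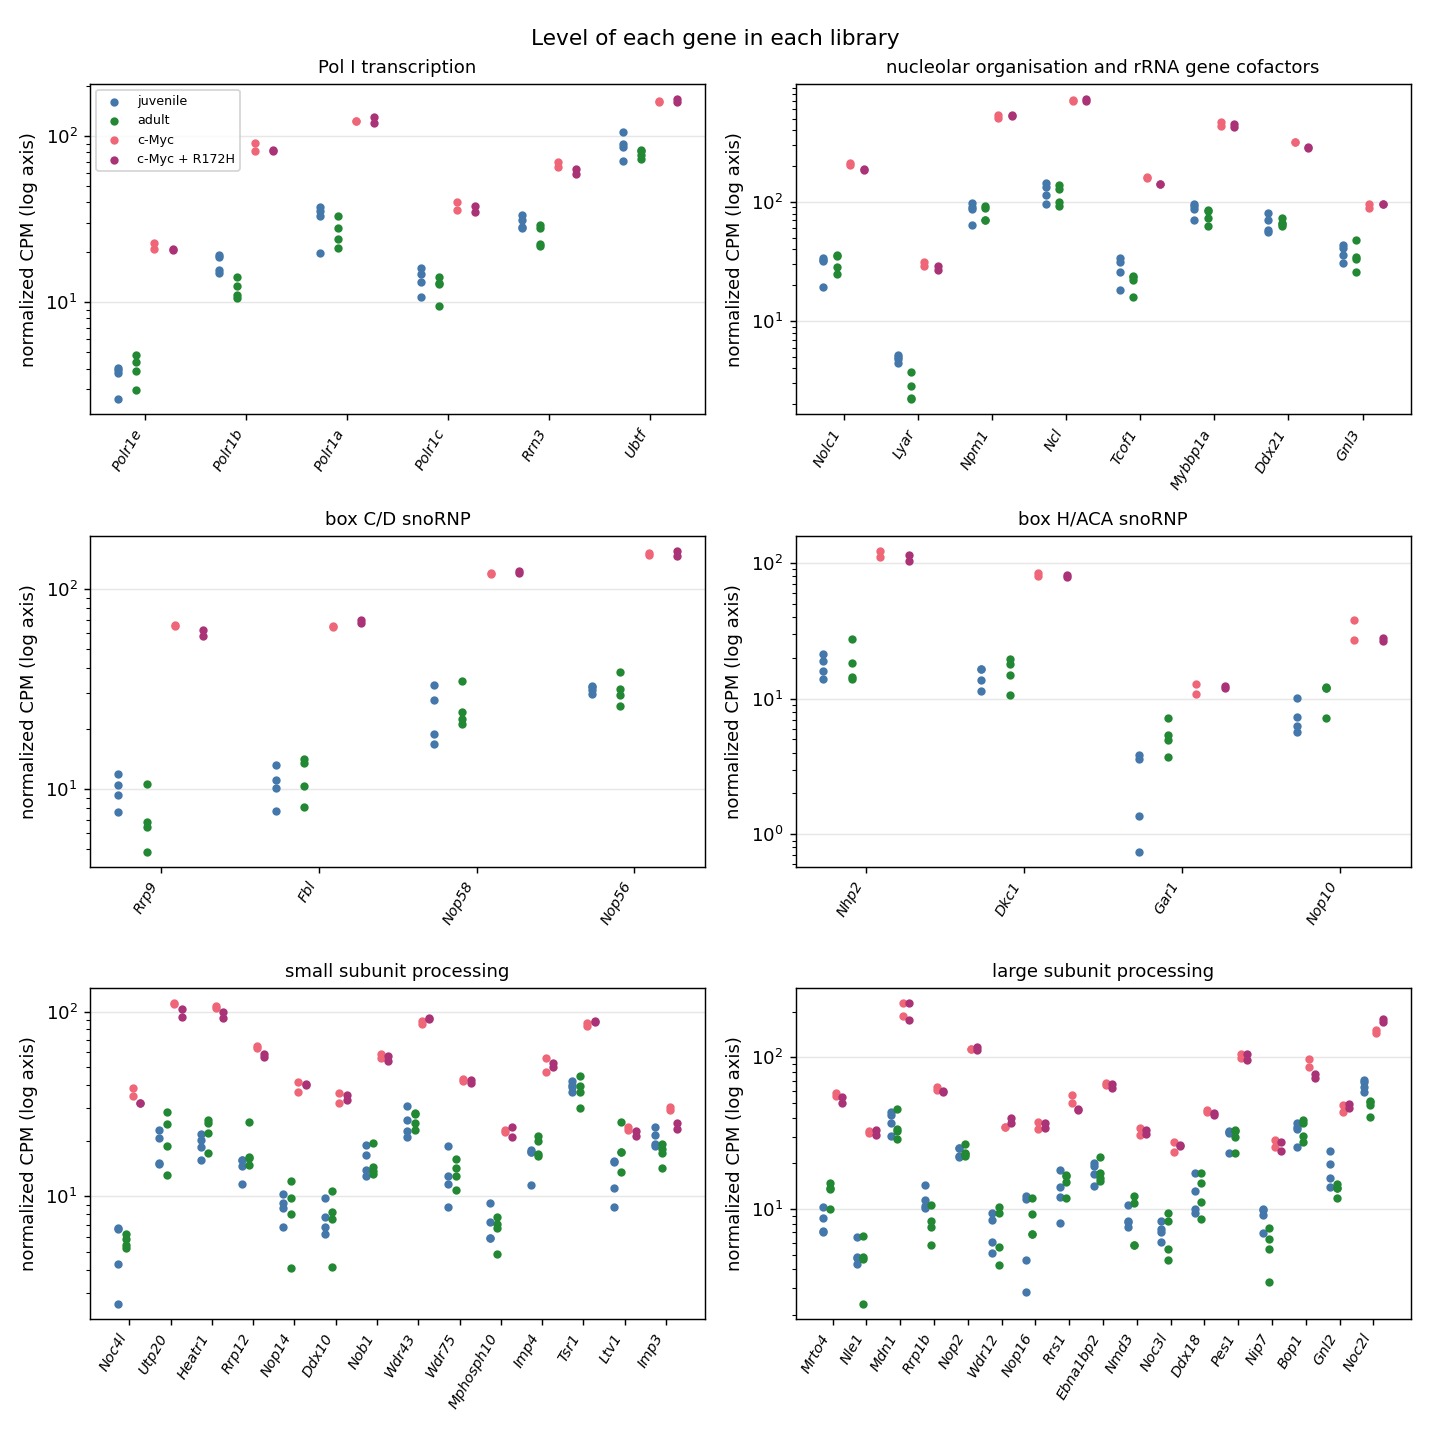
Normalized CPM (log axis) of each of the 53 genes in each of the 12 libraries (points, coloured by group), in 6 panels by role, with genes ordered by their change in *c-Myc* over juvenile libraries. In every panel the *c-Myc* points lie above the juvenile points of the same gene, least far for *Ubtf*, *Ltv1* and *Imp3*.

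The small subunit group held both ends of the range. The median log2 fold change of its 14 genes was 1.81. By the calling rule 12 of them were higher, and all 14 were higher at an edgeR adjusted p below 0.05. *Noc4l*, listed as ENSMUSG00000033294 on chromosome 5 of GRCm38 from 110648418 to 110653417, encodes a partner of *Nop14* in small subunit assembly and had the largest change of all 53 members. It went from 6.76, 6.60, 4.31 and 2.61 CPM in juvenile to 38.5 and 35.0 CPM in *c-Myc* libraries (log2 fold change 2.80, SE 0.26, edgeR adjusted p = 1.80e-06). *Nop14* itself changed by 2.13 (SE 0.16). *Utp20*, *Heatr1*, *Wdr43* and *Wdr75*, components of the processome that forms on the precursor rRNA, had log2 fold changes of 2.56, 2.46, 1.77 and 1.67. The values of *Rrp12*, the RNA helicase gene *Ddx10* and *Nob1*, the nuclease that makes the final cut of the small subunit rRNA, were 2.14, 2.12 and 1.86.

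The small subunit genes that moved least were *Imp3*, *Ltv1* and *Tsr1*. IMP3, IMP4 and MPHOSPH10 form a complex with each other. *Imp4* and *Mphosph10* had log2 fold changes of 1.66 (95% confidence interval 1.30 to 2.01) and 1.66 (1.23 to 2.10), whereas *Imp3* had 0.50 (0.17 to 0.83), and its interval did not overlap the other two. *Imp3*, listed as ENSMUSG00000032288 on chromosome 9 of GRCm38 from 56937475 to 56938398, was measured at 23.7, 21.4, 19.0 and 18.6 CPM in juvenile and 30.4 and 29.2 CPM in *c-Myc* libraries, with an edgeR adjusted p of 0.0134. Per kilobase of exon, *Npm1* and *Noc2l* were the members above *Imp3* in juvenile libraries (22.4 CPM). *Ltv1* and *Tsr1* act late, on the nearly finished small subunit. *Ltv1* stood at 15.4, 15.4, 11.1 and 8.69 CPM in juvenile and 23.6 and 22.7 CPM in *c-Myc* libraries (0.84, SE 0.22), and *Tsr1* went from 39.1, 36.5, 39.8 and 41.9 to 83.0 and 86.7 CPM (1.09, SE 0.10). The exons of *Tsr1* overlap those of *Srr* on the other strand over 1240 bp, so its counts are uncertain if strand was not used in counting.

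All 17 large subunit genes rose, with a group median of 1.89. *Mrto4*, which encodes a factor related to a protein of the ribosomal stalk, went from 8.76, 7.12, 10.3 and 7.08 CPM in juvenile to 58.0 and 55.3 CPM in *c-Myc* libraries (log2 fold change 2.75, SE 0.15, edgeR adjusted p = 3.82e-08). *Nle1* and *Mdn1*, the latter a very large ATPase that remodels the pre-large subunit through *Nle1*, followed with 2.61 and 2.42. *Rrp1b*, the rRNA methyltransferase gene *Nop2* and *Nop16* had log2 fold changes of 2.40, 2.23 and 2.16. The PES1, BOP1 and WDR12 proteins form the PeBoW complex, needed for maturation of the large subunit rRNA. *Wdr12* went from 8.40, 9.39, 5.14 and 6.09 to 34.6 and 34.6 CPM (2.21, 95% confidence interval 1.77 to 2.65), *Pes1* from 32.3, 32.5, 23.4 and 31.9 to 105 and 98.6 CPM (1.74, 1.45 to 2.02) and *Bop1* from 37.1, 33.7, 25.4 and 34.5 to 97.5 and 86.4 CPM (1.46, 1.17 to 1.76). The intervals of *Wdr12* and *Bop1* did not overlap. Per kilobase of exon *Wdr12* remained the lowest of all members in *c-Myc* libraries at 2.89 CPM, a rank that rests on a merged exon length of 11955 bp over all annotated transcripts.

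The remaining large subunit genes had log2 fold changes from 1.16 to 1.99. They were *Rrs1* (1.99), *Ebna1bp2* (1.89), *Nmd3*, an export adaptor (1.89), *Noc3l* (1.81), the RNA helicase gene *Ddx18* (1.78), *Nip7* (1.56), the GTPase gene *Gnl2* (1.29) and *Noc2l* (1.16). *Noc2l*, which encodes a large subunit factor that is also known as an inhibitor of histone acetyltransferases, is listed as ENSMUSG00000095567 on chromosome 4 of GRCm38 from 156236010 to 156247616. It was measured at 68.5, 63.4, 70.4 and 59.0 CPM in juvenile and 152 and 145 CPM in *c-Myc* libraries (SE 0.094, edgeR adjusted p = 6.78e-07). Its exons overlap those of *Samd11* on the other strand over 598 bp.

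Across the 53 members, the log2 fold change was lower where the juvenile level per kilobase of exon was higher, with Pearson's r of -0.34 and Spearman's rho of -0.28. This is a description across genes, which share the same libraries and enter both axes through their juvenile values. It also rests on exon lengths merged over all annotated transcripts. The spread between libraries also differed by group. The median coefficient of variation of the members was 17.4% in juvenile and 18.7% in adult libraries (4 per group). In *c-Myc* and *c-Myc* + *R172H* libraries (2 per group) it was 3.26% and 3.28%. A spread from 2 libraries is less certain than one from 4, and counts of the members were lower in juvenile and adult libraries. The reason for the difference was not tested.

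**Figure D4:**
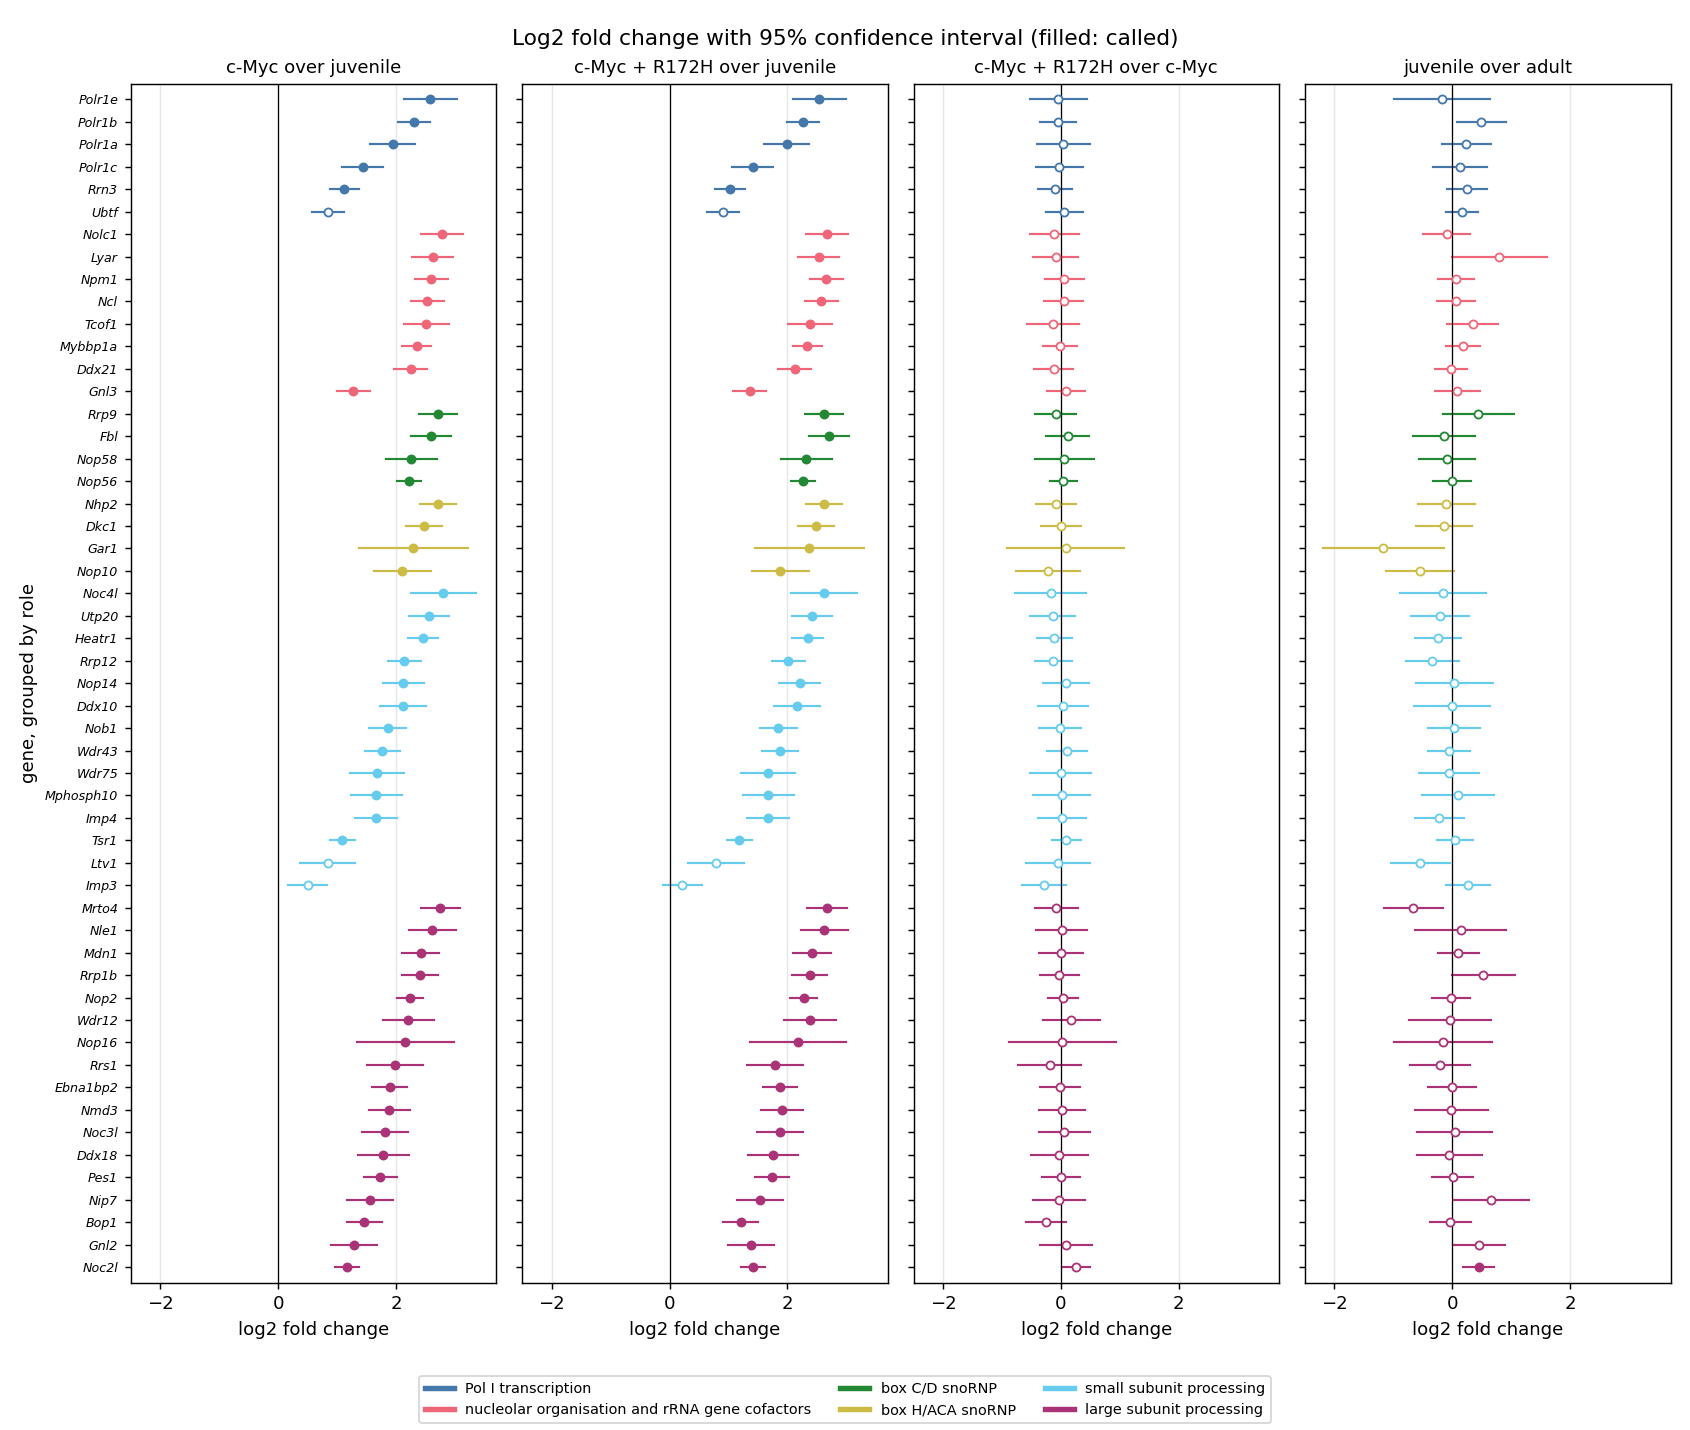
Log2 fold change (horizontal axis) with its 95% confidence interval for each of the 53 genes (rows, coloured by role) in 4 comparisons, with filled points for genes that met the calling rule of that comparison. All points of the first 2 panels lie to the right of 0, with 50 filled in each, the third panel has no filled point and the fourth has 1, *Noc2l*.

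Other genes of the same pathway were examined as a separate list of 114 names, of which 113 were tested. In *c-Myc* over juvenile libraries 112 of the 113 had a positive log2 fold change, against 51.3% of all genes tested. By the same calling rule 86 rose and 0 fell, against 18.4% and 16.0% of all genes tested. The median log2 fold change of the 113 was 1.53. The largest changes were those of *Shq1*, an assembly factor of box H/ACA particles (2.97), *Taf1d*, a subunit of the Pol I selectivity factor (2.79), and *Exosc8*, an RNA exosome subunit (2.59). The smallest were those of *Riok3* (-0.53), *Polr2k* (0.12) and *Znrd1*, a small Pol I subunit (0.14). *Polr2k* and *Znrd1* did not pass the test, and *Riok3* was lower at an edgeR adjusted p of 0.00699 without reaching the fold threshold.

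Reads of an rRNA-like locus were also counted. *Gm26917* lies on chromosome 17 of GRCm38 from 39843013 to 39846341 on the plus strand, directly before *Rn18s-rs5*, an 18S rRNA-related pseudogene that RefSeq places at 39846354 to 39848202 and for which it gives *Gm42418* as a synonym. *Gm26917* was higher in *c-Myc* than in juvenile libraries by 1.04 on the log2 scale (SE 0.12, edgeR adjusted p = 9.00e-06), and *Gm42418* by 1.06 (SE 0.12). *AY036118*, which lies within *Gm42418* on the opposite strand (39847113 to 39848035), went the other way and varied widely between libraries, at 11.04 to 88.6 CPM in juvenile and 0.137 and 4.14 CPM in *c-Myc* libraries. Its difference was -4.27 (SE 1.33, edgeR adjusted p = 0.0371) in *c-Myc* and -4.34 (SE 1.32, edgeR adjusted p = 0.0331) in *c-Myc* + *R172H* over juvenile libraries. The share of *Gm26917* in adult libraries ran from 4.70 to 10.5%, and in *c-Myc* + *R172H* libraries from 26.5 to 28.7%. The origin of these reads was not tested.

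Cell markers differed between these libraries as well, some lower and some higher. All 10 osteoblast markers and all 9 chondrocyte markers passed edgeR's test as lower in *c-Myc* than in juvenile libraries (adjusted p below 0.05), as were 3 of 4 marrow stromal markers and 1 of 3 osteoclast markers tested, and all 4 proliferation markers were higher. At this threshold, without the fold threshold, 3149 of the 12588 genes tested were lower and 3577 higher. Of the 2 haematopoietic markers that could be tested, *Lyz2*, a gene of myeloid cells, was higher, at 0 to 0.973 CPM in juvenile and 6.48 and 5.84 CPM in *c-Myc* libraries (4.23, edgeR adjusted p = 0.00038). The tdTomato sequence, which *mTmG* cells express before recombination, stood at 0.695 to 8.67 CPM in juvenile and 34.5 and 32.8 CPM in *c-Myc* libraries (2.93, edgeR adjusted p = 0.00279). The proliferation markers (*Mki67*, *Top2a*, *Pcna* and *Mcm2*) summed to 75.2 to 103 CPM in juvenile, 73.8 to 135 CPM in adult, 434 to 456 CPM in *c-Myc* and 453 to 487 CPM in *c-Myc* + *R172H* libraries. Marrow stromal markers (4) summed to 261 to 345 CPM in juvenile and 76.1 to 149 CPM in *c-Myc* libraries, and osteoclast markers (4) to 203 to 332 CPM and 83.9 to 105 CPM. The part of these markers in the change of the ribosome biogenesis genes was not tested. Without the 2 libraries with high *Xist*, 50 members were again called higher in *c-Myc* over juvenile, with a median of 2.17.

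The second comparison set *c-Myc* + *R172H* osteoblasts against the same juvenile libraries, so it is not independent of the first. All 53 genes again had positive log2 fold changes (52.4% of all genes), with a median of 2.16, and 50 rose by the calling rule, against 19.6% of the 12588 genes tested. A log2 fold change of at least 2 was reached by 29 members (8.71% of all genes), and for 52 members every *c-Myc* + *R172H* library lay above every juvenile library (36.5% of all genes). With edgeR's quasi-likelihood test 0 members fell (17.9% of all genes), as with DESeq2. Group medians were 1.70 for Pol I transcription, 2.45 for nucleolar organisation, 2.47 for box C/D, 2.43 for box H/ACA, 1.86 for the small subunit and 1.87 for the large subunit. Without the 2 libraries with high *Xist* the count was 50 and the median 2.16. With library totals the median of all genes moved from 0.08 to 1.12 and that of the members to 3.19, and 87.8% of called genes were higher compared with 52.2% under TMM.

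The members with the largest change of each role group all lay far above the juvenile libraries. *Fbl* was measured at 69.7 and 67.6 CPM in the *c-Myc* + *R172H* libraries, which is 2.71 above juvenile on the log2 scale (SE 0.15, edgeR adjusted p = 2.88e-08). *Nolc1* stood at 189.7 and 186 CPM (2.67, SE 0.16), next to *Npm1* of the same group at 541 and 528 CPM (2.66, SE 0.13), *Mrto4* at 50.3 and 54.6 CPM (2.67, SE 0.15), *Noc4l* at 31.8 and 31.8 CPM (2.63, SE 0.26), *Nhp2* at 114 and 102 CPM (2.62, SE 0.14) and *Polr1e* at 20.7 and 20.8 CPM (2.54, SE 0.21). The smallest changes within role groups were those of *Ubtf* at 160.2 and 167 CPM (0.90, SE 0.12), *Gnl3* at 96.9 and 96.6 CPM (1.36, SE 0.13), *Nop56* at 146 and 155 CPM (2.26, SE 0.09), *Nop10* at 27.9 and 26.8 CPM (1.88, SE 0.22) and *Bop1* at 77.3 and 73.4 CPM (1.21, SE 0.14). *Ltv1*, at 22.6 and 21.1 CPM (0.78, SE 0.22), was the second lowest of all members after *Imp3*. *Imp3* was the member that did not pass the test, at 24.9 and 23.1 CPM with a log2 fold change of 0.22 (95% confidence interval -0.11 to 0.55, adjusted p = 0.240). Its lower *c-Myc* + *R172H* library lay below the highest juvenile library. *Rrn3*, at 63.6 and 59.4 CPM and 1.03, passed the fold threshold narrowly and fell just under it, at 0.92 to 1.00, in 8 of 17 alternative fits, while its adjusted p stayed below 0.05 in all 17. Of the 113 other genes of the pathway, 84 were called higher and 0 lower, against 19.6% and 17.9% of all genes tested. Their median log2 fold change was 1.52. All 10 osteoblast, all 9 chondrocyte and all 4 marrow stromal markers and 2 of 3 osteoclast markers tested were lower, and all 4 proliferation markers higher, than in juvenile libraries at an adjusted p below 0.05. At this threshold, without the fold threshold, 3311 of the 12588 genes tested were lower and 3832 higher. *Lyz2* was again higher (2.95, edgeR adjusted p = 0.00547), at 3.57 and 1.39 CPM, as was tdTomato (2.84, edgeR adjusted p = 0.0031), at 28.9 and 33.0 CPM. The part of these markers in the changes was not tested.

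The third comparison asked whether mutant p53 changed the pathway on top of *c-Myc*. With edgeR's quasi-likelihood test on the 4 induced libraries and the juvenile libraries in one fit, 0 of the 53 members were called higher and 0 lower at an adjusted p below 0.05, against 0.00794% and 0.461% of all genes, and DESeq2 called 0 in either direction. At an unadjusted p below 0.05 there was 1 member, against 4.68% of all genes. The median log2 fold change, *c-Myc* + *R172H* over *c-Myc*, was -0.002, with 25 members above 0 and 28 below. This balance moved with the scaling, with 50 members above 0 with library totals, 28 with upper-quartile factors and 19 with RLE factors. The 95% confidence interval lay within -1 to 1 for 52 members and within -0.5 to 0.5 for 35, so a 2-fold change lay outside the interval for all but *Gar1* (-0.92 to 1.07). The groups did not overlap for 7 members with higher levels in *c-Myc* + *R172H* libraries (17.5% of all genes) and for 18 with lower levels (27.5% of all genes). Of the other 113 pathway genes, 0 were called in either direction. Calls rose when the juvenile libraries were left out of the fit, to 189 of all genes higher and 440 lower, and 1 member higher. Without the 2 libraries with high *Xist*, which leaves 1 library in each induced group, 0 members were called.

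*Noc2l* was the member with the lowest p and the largest positive difference. It stood at 152 and 145 CPM in *c-Myc* and 178 and 171 CPM in *c-Myc* + *R172H* libraries, without overlap (log2 fold change 0.26, SE 0.11, edgeR adjusted p = 0.897). In a fit of these 4 libraries alone its adjusted p was 0.0207, and in the other alternatives it ranged from 0.119 to 1. *Bop1* and *Imp3* had the most negative values in their groups. *Bop1* went from 97.5 and 86.4 to 77.3 and 73.4 CPM (-0.26, 95% confidence interval -0.60 to 0.085) and *Imp3* from 30.4 and 29.2 to 24.9 and 23.1 CPM (-0.28, -0.65 to 0.09), each without overlap and short of the test. In the other groups the extremes were *Ubtf* (0.06) and *Rrn3* (-0.10) of Pol I transcription, *Gnl3* (0.087) and *Tcof1* (-0.13) of nucleolar organisation, *Fbl* (0.11) and *Rrp9* (-0.091) of box C/D, *Gar1* (0.079) and *Nop10* (-0.22) of box H/ACA, and *Wdr43* (0.10) at the upper end of the small subunit. By library, *Tcof1* read 142 and 142, *Rrp9* 58.1 and 62.0, *Gar1* 12.03 and 12.4 and *Wdr43* 92.3 and 90.7 CPM in the *c-Myc* + *R172H* group, and *Gar1* and *Wdr43* 10.9 and 12.8 and 88.9 and 85.1 CPM in the *c-Myc* group. Over all 53 members the values lay between -0.28 and 0.26. *Gm26917* differed by -0.27 (SE 0.14). Of the cell markers, 1 of 10 osteoblast and 1 of 4 marrow stromal markers were lower in *c-Myc* + *R172H* than in *c-Myc* libraries, and their part in these values was not tested.

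The fourth comparison addressed age, juvenile over adult. With edgeR, 1 of the 53 genes was called higher in juvenile osteoblasts and 0 were called lower (adjusted p below 0.05), against 1.89% and 3.23% of the 11345 genes tested. At an unadjusted p below 0.05 there were 7 members, against 19.7% of all genes. The median log2 fold change was -0.002, with 25 members above 0 and 28 below (11 above 0 with library totals), and the 95% confidence interval lay within -1 to 1 for 45 members. With library totals the median of all genes moved to -0.24 and that of the members to -0.25, and 6.26% of called genes were higher in juvenile libraries compared with 36.8% under TMM. All 4 proliferation markers had no call in this comparison, whereas 3 of 10 osteoblast markers were higher and 1 of 9 chondrocyte markers lower in juvenile libraries. *Lyz2*, the haematopoietic marker that could be tested, was lower in juvenile libraries, at 0 to 0.973 CPM compared with 3.85 to 9.25 CPM in adult libraries (-4.28, edgeR adjusted p = 0.00221). The part of these markers in the values below was not tested.

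The gene called was *Noc2l*, at 68.5, 63.4, 70.4 and 59.0 CPM in juvenile and 40.5, 51.8, 50.4 and 48.3 CPM in adult libraries, without overlap (log2 fold change 0.44, SE 0.12, edgeR adjusted p = 0.0464). The call was lost when any juvenile library, or adult replicate 1, 3 or 4, was left out, at adjusted p-values from 0.0656 to 0.142, and with library totals the value was 0.21 (adjusted p = 0.479). Juvenile and adult libraries were also apart, with higher juvenile levels, for *Polr1b* and *Lyar* (6.17% of all genes). *Polr1b* had 10.6, 11.1, 12.5 and 14.2 CPM in adult libraries (0.49, SE 0.20, adjusted p = 0.168), and *Lyar* went from 4.84, 4.95, 5.14 and 4.47 CPM in juvenile to 3.74, 2.26, 2.198 and 2.88 CPM in adult libraries (0.79, SE 0.38, adjusted p = 0.263). *Nip7* read 9.86, 9.08, 6.95 and 9.94 CPM in juvenile and 6.38, 7.45, 5.43 and 3.30 CPM in adult libraries (0.66, SE 0.30), and *Gnl2* differed by 0.45 (SE 0.21). In the other direction, *Mrto4* read 14.9, 10.0, 13.6 and 13.7 CPM in adult libraries (-0.66, SE 0.24, adjusted p = 0.113), and *Ltv1* 25.2, 17.4, 13.6 and 17.3 CPM (-0.54, SE 0.24). For *Mrto4* and *Ltv1* the highest juvenile library lay above the lowest adult library.

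The 4 box H/ACA genes all had negative values, with a median of -0.35, and 0 of them passed the test. *Gar1* read 5.36, 3.72, 4.91 and 7.25 CPM in adult libraries, compared with 1.37, 3.82, 3.62 and 0.745 CPM in juvenile libraries (-1.17, 95% confidence interval -2.20 to -0.14, edgeR adjusted p = 0.187). *Nop10* differed by -0.55, and *Nhp2*, at 18.4, 14.0, 14.5 and 27.6 CPM in adult libraries, by -0.10. In the remaining groups the extremes were *Polr1e* (3.85, 4.85, 4.40 and 2.98 CPM in adult libraries, -0.17), *Nolc1* (28.5, 36.1, 24.96 and 35.4 CPM, -0.094), *Rrp9* (6.48, 4.85, 6.85 and 10.5 CPM, 0.44), *Fbl* (14.1, 10.4, 8.15 and 13.4 CPM, -0.14) and *Imp3* (17.1, 17.9, 14.2 and 19.1 CPM, 0.27), with overlapping libraries and adjusted p-values above 0.05 for each. Of the 113 other genes of the pathway, 0 were called higher and 2 lower in juvenile libraries, against 1.89% and 3.23% of all genes tested. The 2 genes were *Urb1* (-1.46) and *Taf1d* (-0.69).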

How the data were processed

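The authors removed adapters with cutadapt (4.6), mapped to mm10 by STAR (2.7.11a) and ran HTSeq (2.0.5) on reads with a single hit, and they deposited these raw counts per gene for 12 libraries without normalization. The kit marks strand, but the strand setting of the counting is not given in the sources used here, and exons of 19 of the 53 genes overlap exons on the other strand. Reads carry no molecular identifiers, so limits from counts cover counting error only. Coordinates are from GENCODE vM21 of GRCm38, and promoters from RefSeq (GRCm38.p6).

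Libraries were grouped by their titles. Counts of replicates differed by more than sampling noise (chi-square per degree of freedom 5.45 to 136). Genes were tested with edgeR 4.0.16 under R 4.3.3 (TMM, filterByExpr, robust quasi-likelihood fit, F test, Benjamini-Hochberg adjustment over all genes tested at 0.05), the induced and juvenile libraries sharing one fit and the juvenile and adult libraries another. Calls of the induced groups against juvenile libraries further had to reach 1 on the log2 scale in either direction. The SE was approximated by dividing each log2 fold change by the root of its F statistic, and the 95% confidence interval is built from it. The procedure was tested on simulated data. CPM per kilobase used the exon length merged over all annotated transcripts of a gene. This length can exceed that of the transcripts present, so levels per kilobase and their ranks are approximate.

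The 53 genes, the role groups, the list of other pathway genes and the marker lists were chosen with earlier results of these data known. Values by library are given, in each comparison and role group, for the genes with the largest and the smallest log2 fold change, and in *c-Myc* over juvenile for members of known complexes. Up to 3 other pathway genes are named at each end. *Nip7*, *Gnl2* and the members that pass an unadjusted p in the age comparison were added after their values were seen. Alternatives were RLE, upper-quartile and no composition factors, 2 other filters, 5 dominant genes left out, other sets of libraries, a replicate block, leaving out single libraries, and DESeq2 1.42.0. Leaving out both libraries with *Xist* above 100 CPM was chosen after seeing the data.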

Additional observations from a re-analysis of the deposited data

Results flagged for a closer look

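In 5 of the 106 groups of 4 libraries examined (53 genes in juvenile and in adult libraries), 1 library lay far from the other 3 by Dixon's criterion, which chance meets in about 1 of 20 groups. *Nolc1* was at 19.2 CPM in juvenile replicate 4, with the next library at 31.7 CPM. *Imp4* and *Pes1* were both lowest in juvenile replicate 3, at 11.5 CPM with the next at 17.3 CPM, and at 23.4 CPM with the next at 31.9 CPM. In adult replicate 4, *Nop10* was lowest at 7.14 CPM with the next at 11.9 CPM, and *Rrp12* was highest at 25.4 CPM with the next at 16.2 CPM. For *Nolc1*, *Imp4* and *Pes1*, all 4 *c-Myc* and *c-Myc* + *R172H* libraries also lay above the highest juvenile library, at 34.1, 17.8 and 32.5 CPM. The groups of 2 libraries were not examined in this way.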

How the results depend on the processing

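In *c-Myc* over juvenile and *c-Myc* + *R172H* over juvenile, every member that passed the filter kept its sign in all 17 alternatives, and the calls of 50 and 49 members held in every fit that tested them, the exception being *Rrn3* in the latter. The number of members called stayed between 49 and 53 in *c-Myc* over juvenile, where 1 member did not pass the filter of at least 10 counts. Medians moved beyond the spread of the libraries with library totals (2.97 and 3.19) and with the replicate number as a block (1.95 and 1.99), and *Ubtf*, *Ltv1* and *Imp3* were called in both comparisons with library totals. Outside the pair of *c-Myc* and *c-Myc* + *R172H*, deviations of same-numbered libraries correlated between -0.052 and 0.067, so the titles' replicate numbers gave no sign of pairing there. Between *c-Myc* and *c-Myc* + *R172H* the value was 0.14, which with 2 libraries per group is the same for both pairs. Replicate 2 was the library with high *Xist* in both groups (233 and 211 CPM). Whether these 2 groups are paired cannot be decided from these libraries. With the replicate block, 50 members were called in *c-Myc* over juvenile, 49 in *c-Myc* + *R172H* over juvenile and 0 in *c-Myc* + *R172H* over *c-Myc*. In the last comparison the block called 30 of all genes higher and 296 lower, compared with 1 and 58 in the main fit.

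In *c-Myc* + *R172H* over *c-Myc*, the median was -0.025 with RLE and with DESeq2, 0.21 with library totals, where the median of all genes was also 0.21, -0.031 with all 12 libraries, -0.069 to -0.028 with each library left out and -0.051 without the libraries with high *Xist*. A fit of these 4 libraries alone called 1 member higher (*Noc2l*), with 4 members at an unadjusted p below 0.05. Over all genes it called 189 higher and 440 lower of 12170 tested, compared with 1 and 58 of 12588 in the main fit. The number of calls in this comparison thus depended on whether the juvenile libraries shared the fit. Signs turned for 25 of the 53 members with library totals, 6 with RLE and with DESeq2, 3 with upper-quartile factors, 7 with all 12 libraries, 2 with these 4 libraries alone, 12 without the libraries with high *Xist* and 7 to 12 with each library left out. Among the members with the largest and smallest values of their role groups, they turned for *Rrn3* (0.11), *Rrp9* (0.12) and *Tcof1* (0.076) with library totals, for *Gar1* (-0.062) and *Nop10* (0.021) without *c-Myc* replicate 1, and for *Ubtf* (-0.0065) without *c-Myc* + *R172H* replicate 2. With each library left out, *Gar1* ranged from -0.062 to 0.17, *Nop10* from -0.47 to 0.021 and *Ubtf* from -0.0065 to 0.070. With each library left out, the lone library of a group is assumed to vary like the other groups.

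In juvenile over adult, 0 members were called higher with library totals or the block and 3 with all 12 libraries (*Noc2l*, *Polr1b* and *Lyar*), and 1 was called lower (*Mrto4*) with library totals and with all 12 libraries. With each library left out, 0 to 1 were called higher. The median was -0.25 with library totals, against -0.24 for all genes. Of the other pathway genes, 1 was called higher with all 12 libraries and with DESeq2 and 0 to 1 with each library left out, and 1 was called lower with the block and 0 to 2 with each library left out. Signs turned for 14 of the 53 members with library totals, 5 with the block, 1 to 2 with RLE, DESeq2, the filter of at least 10 counts or all 12 libraries, and 3 to 13 with each library left out, and 34 members were above 0 without juvenile replicate 3, juvenile replicate 4 or adult replicate 4. Among the members named for this comparison they turned for *Nolc1* (0.064) without juvenile replicate 4 and for *Nhp2* (0.15) without adult replicate 4, the ranges with each library left out being -0.19 to 0.064 and -0.21 to 0.15. The cause of these changes was not tested. With 2 libraries in each induced group, small differences were not detectable.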
